A study of Mus musculus with 30 samples.

Results

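Genes of the Polycomb system, of DNA methylation and of DNA demethylation were followed in sorted pancreatic islet cells of the mouse, in which glucagon-producing alpha-cells had received the beta-cell factor Pdx1, had lived through loss of the beta-cells, or both. The members were 37 genes listed by name for their function, by a rule that holds no expression value, although earlier results of these data were known when the list was made. Of these, 35 were rows of a table of 17775 genes, and all 35 were among the 16633 genes tested, which had a log2 value of at least 5 in at least 4 of the 30 libraries. They were 4 genes of DNA methylation (the methyltransferases and Uhrf1), 3 TET dioxygenases, 6 core and 5 accessory subunits of Polycomb repressive complex PRC2, 6 PCGF, 2 RING, 4 CBX and 3 PHC subunits of PRC1, and 2 demethylases of histone H3 lysine K27. The methyltransferases Kmt2a and Kmt2d were not rows under these names, and rows under older names are described separately. Uhrf1 passed the filter through few libraries, with 3 of the alpha Pdx1 group and 1 of beta at or above 5. Phf19 did so in 1 alpha Pdx1 DT library, 1 alpha DT library and 3 beta libraries.

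The 5 groups were bulk RNA-seq libraries of cells isolated by FACS. Alpha Pdx1 DT (n = 6) came from mice with the driver alleles Glucagon-rtTA and TetO-Cre, the reporter R26YFP, the Pdx1 allele CAGPdx1 and the toxin receptor RIP-DTR, given diphtheria toxin (DT) at 2 months of age, with cells taken 30 days later. Alpha Pdx1 (n = 5) came from 3-month-old mice with the same driver, reporter and Pdx1 alleles, written CAG-Pdx1 in their label, and without RIP-DTR or toxin. Alpha DT (n = 4) came from Glucagon-Venus; RIP-DTR mice under the same toxin schedule. Beta (n = 7) came from Insulin-mCherry mice and alpha (n = 8) from Glucagon-Venus mice, both at 3 months of age. In RIP-DTR mice the insulin promoter drives the toxin receptor, so that toxin removes beta-cells. The glucagon promoter drives the Venus reporter in Glucagon-Venus mice and rtTA in the Pdx1 groups, whose reporter was R26YFP. RIP-DTR and the toxin came together in every ablated group, as did Pdx1 and its driver and reporter alleles, so within each pair they cannot be told apart. Beta and alpha came from different reporter lines, so cell type and mouse line cannot be told apart either. The labels do not state that libraries came from separate animals, so p-values measure only the spread between these samples.

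PRC2 places methyl groups on lysine 27 of histone H3 through its catalytic subunits EZH1 or EZH2, held by EED, SUZ12 and the histone chaperones RBBP4 or RBBP7. PRC1 binds that mark through CBX proteins and ubiquitinates histone H2A through RING1 or RNF2, with PCGF proteins that define its variants, and KDM6A and KDM6B remove the mark. DNMT3A and DNMT3B set methyl groups on CpG dinucleotides, DNMT1 copies them after replication with the help of UHRF1, and TET enzymes oxidise them. Polycomb and DNA methylation are known in islets for keeping genes of other cell types silent, and human alpha-cells for carrying both active and Polycomb marks on many genes.

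The promoters of 4 members are shown because these genes passed the test both in beta against alpha and in alpha Pdx1 DT against alpha, comparisons that share the alpha libraries. Tet3 and Ezh1 were higher in both, and Ring1 and Pcgf6 were lower in both. Phf1 also met that condition, but an annotated exon of Phf1 lies in its window and it is not printed. Each line gives, 5′ to 3′ on the strand of the gene, the 250 bases before a transcript start in RefSeq (build GRCm38.p6), with CpG in capitals, the only motif searched, whose letters CG read the same on both strands. The windows are chr6:83441679-83441928 (minus strand) for Tet3, chr11:101226464-101226713 (minus) for Ezh1, chr17:34024681-34024930 (minus) for Ring1 and chr19:47050907-47051156 (minus) for Pcgf6.
Tet3: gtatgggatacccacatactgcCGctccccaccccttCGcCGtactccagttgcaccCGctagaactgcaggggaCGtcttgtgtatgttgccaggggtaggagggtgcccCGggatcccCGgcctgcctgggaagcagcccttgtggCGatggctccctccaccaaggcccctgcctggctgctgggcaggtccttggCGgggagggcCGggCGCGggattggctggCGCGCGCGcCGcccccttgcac
Ezh1: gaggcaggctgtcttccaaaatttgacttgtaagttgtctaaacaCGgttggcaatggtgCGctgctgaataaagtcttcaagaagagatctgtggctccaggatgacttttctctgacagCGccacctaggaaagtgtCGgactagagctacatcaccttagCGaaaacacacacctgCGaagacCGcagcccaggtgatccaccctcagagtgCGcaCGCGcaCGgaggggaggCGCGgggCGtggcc
Ring1: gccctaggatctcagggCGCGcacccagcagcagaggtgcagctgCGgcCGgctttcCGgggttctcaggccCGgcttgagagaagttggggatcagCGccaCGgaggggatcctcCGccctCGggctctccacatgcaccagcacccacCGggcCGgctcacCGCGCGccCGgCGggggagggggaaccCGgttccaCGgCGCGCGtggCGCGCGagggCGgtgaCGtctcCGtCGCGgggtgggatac
Pcgf6: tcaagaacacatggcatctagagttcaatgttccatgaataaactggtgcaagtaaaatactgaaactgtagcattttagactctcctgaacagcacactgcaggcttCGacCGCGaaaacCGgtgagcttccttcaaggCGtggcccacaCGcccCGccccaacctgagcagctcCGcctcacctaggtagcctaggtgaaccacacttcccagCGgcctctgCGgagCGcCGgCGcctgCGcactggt
These windows hold 17 CpG for Tet3, 14 for Ezh1, 30 for Ring1 and 14 for Pcgf6. Of 27025 windows of the same length, 1 per gene, 23.6% held as many CpG as that of Tet3, 29.6% as many as those of Ezh1 and Pcgf6, and 5.63% as many as that of Ring1. Windows were found for 34 of the 37 listed genes, with a median of 21 CpG (range 1 to 51) against 6 over all windows. At least 10 CpG were present in 30 of the 34, against 38.2% of all windows. The starts used here for Tet3 and Pcgf6 lie inside the annotated span of the gene, and the Tet3 window crosses an exon of the noncoding gene B230319C09Rik on the other strand. Methylation was not measured in these libraries.

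All values below are the authors' quantile-normalized log2 values, in which every library has the same distribution, so a difference of 1 is a change of rank position equal to a doubling on their scale. They are not stated to be per length, and levels of different genes are not compared. Differences are given as log2 fold changes ± SE from limma, with p-values adjusted over all 16633 genes tested (called where under 0.05). Read numbers are unknown. As a rough sign of depth, the values of each library below its lowest quartile numbered between 32 (alpha Pdx1 DT 6) and 111 (alpha 8), ties counted once. Between beta and alpha, 8 of 8 alpha-cell markers were lower and 8 of 8 beta-cell markers were higher. The label was in doubt for 5 libraries. Alpha 8 had Pdx1 at 11.23, where the other alpha libraries were at most at 5.61, and alpha Pdx1 DT 5 had Pdx1 at 5.51, where the rest of its group were at or above 11.53. Gcg was the most abundant gene of beta 1 and beta 5. Alpha Pdx1 5 had Pdx1 at 8.61, below the rest of its group (at or above 10.78) but above alpha other than alpha 8, as its label says. Alpha Pdx1 DT 5 was also closest of all libraries to alpha 4, with a correlation of 0.993 over genes, against 0.987 for the next pair, and whether these libraries share RNA was not tested. If they did, alpha Pdx1 DT would hold 5 independent libraries. Without alpha Pdx1 DT 5, alpha Pdx1 DT against alpha called 7 members. Results without these 5 libraries are given beside the counts.

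Beta-cells and alpha-cells differed in 15 of the 35 members, 5 higher and 10 lower in beta (42.9%), where 34.5% of all genes tested were called. That share is close to the background, and its split leaned to lower values, with 10 of 35 lower against 17.6% of all genes and 5 of 35 higher against 16.9%. The median log2 fold change was -0.24 over members and 0 over all genes. In alpha Pdx1 DT against alpha, 5 members were called (14.3%), 3 higher and 2 lower, against 7.81% of all genes (4.06% higher and 3.75% lower). Against alpha Pdx1, alpha Pdx1 DT had 5 called (14.3%), 4 higher and 1 lower, against 9.22% (4.83% higher and 4.39% lower). In alpha DT against alpha, 1 member was called, and lower, against 3.26% of all genes (1.57% higher and 1.7% lower). In alpha Pdx1 DT against alpha DT, 1 member was called, and higher, against 2.1% (1.78% higher and 0.319% lower). In alpha Pdx1 DT against beta, 9 members were called (25.7%), 7 higher and 2 lower, against 26.3% (12.9% higher and 13.4% lower). The lower ones were Bmi1 and Phf19, and Phf19 passed the filter only with its beta libraries. In alpha Pdx1 against alpha, 0 of 35 members were called by limma, 2 of them with an unadjusted p under 0.05, against 4.33% of all genes (2.36% higher and 1.98% lower). A test of whether the toxin effect differed with Pdx1 called 0 members and 0 genes, with 2 members and 1527 genes at an unadjusted p under 0.05. In bulk libraries a change in the make-up of the sorted cells and a change of RNA per cell cannot be told apart.

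The calls among alpha-cell groups depended on the fit. Fitted on its own groups alone, alpha Pdx1 DT called 0 members and 0 genes against alpha by limma (11 members and 3839 genes at an unadjusted p under 0.05), and 0 members and 0 genes against alpha DT (1 member and 1377 genes). Alpha DT against alpha called 0 members and 66 genes in that way (3 members at an unadjusted p under 0.05). With the ribosomal RNA gene Rn18s-rs5, whose level differed between the groups, as a covariate, alpha Pdx1 DT called 0 members and 0 genes against alpha (3 members and 1991 genes at an unadjusted p under 0.05). Against alpha Pdx1 it likewise called 0 and 0 (2 members and 758 genes), and alpha DT against alpha called 0 members (5 at an unadjusted p under 0.05). Without the 5 doubted libraries, beta against alpha called 14 members (31.8% of all genes), all among the 15. Alpha Pdx1 DT against alpha then called 7 (20.3% of all genes), which were the same 5 with Dnmt3a and Cbx6 in addition. Alpha Pdx1 DT against alpha Pdx1 called 4 of its 5 (7.65%), alpha Pdx1 DT against beta called 5 of its 9 (25.5%), and the single calls in alpha DT against alpha (3.26%) and in alpha Pdx1 DT against alpha DT (5.73%) were kept. Alpha Pdx1 against alpha still called 0 members (6.61%), as did the interaction.

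**Figure D1:**
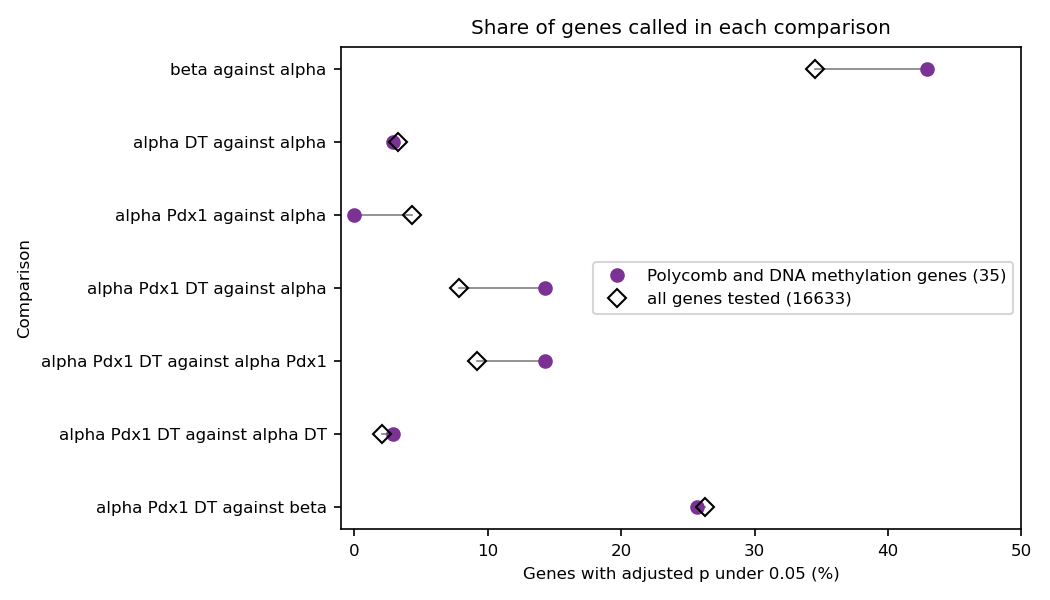
Percent of genes called (horizontal axis, adjusted p under 0.05) in each of 7 comparisons (vertical axis), for the 35 members (filled circles) and for all 16633 genes tested (open diamonds). The circles lie at 42.9% for beta against alpha and at 14.3% for alpha Pdx1 DT against alpha and against alpha Pdx1, above their diamonds, and close to or below the diamonds in the other comparisons.

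**Figure D2:**
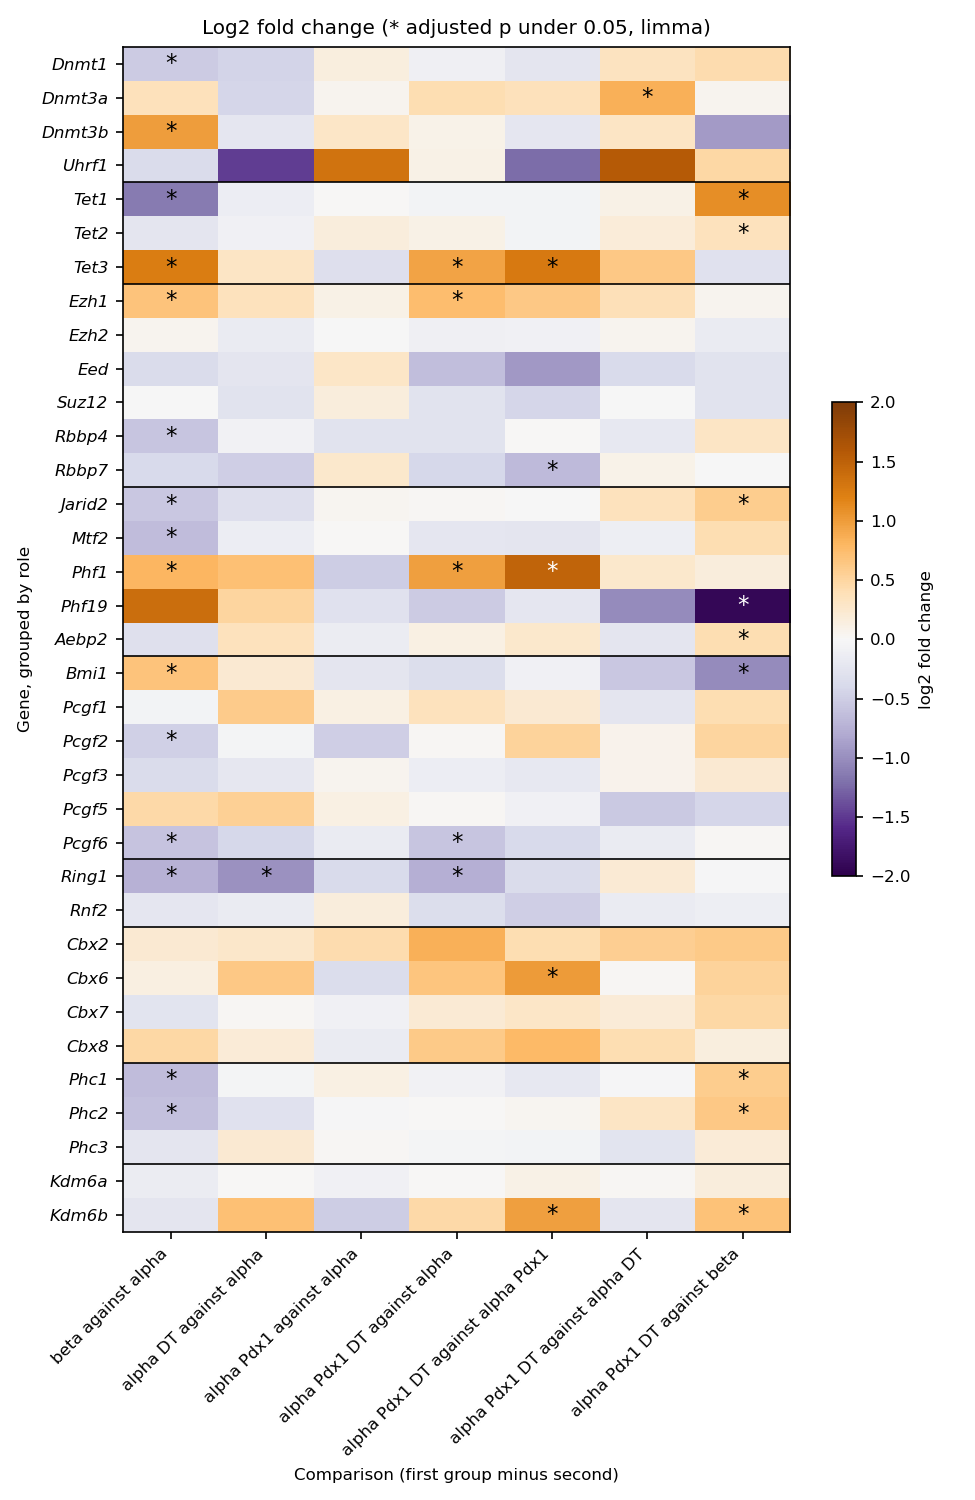
Log2 fold change (colour, first group minus second) of each of the 35 members (rows, grouped by role and separated by lines) in 7 comparisons (columns), with an asterisk where the adjusted p was under 0.05. Tet3, Ezh1 and Phf1 are higher, and Ring1 and Pcgf6 lower, with an asterisk, both in beta and in alpha Pdx1 DT against alpha.

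Among the DNA demethylation genes, Tet1 and Tet3 separated beta-cells from alpha-cells in opposite directions. Tet1 (chr10:62804570-62887469), an oxidase of 5-methylcytosine, was lower in beta, and Tet3 (chr6:83362373-83457208), an oxidase of the same family, was higher. Alpha-cells with Pdx1 and ablation together had Tet3 above alpha and above alpha Pdx1, and Tet1 above beta. Tet2 (chr3:133463677-133545136), the remaining member, was called only in alpha Pdx1 DT against beta.

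Tet1 had log2 values of 11.64 to 12.18 (median 11.80) in alpha Pdx1 DT, 11.69, 12.05, 11.65, 12 and 12.26 in alpha Pdx1, and 10.96, 11.98, 11.76 and 12.44 in alpha DT. It had 10.39 to 11.12 (median 10.82) in beta and 11.28 to 12.31 (median 12.02) in alpha. Every beta library lay below every alpha and every alpha Pdx1 DT library. The log2 fold change was -1.14 ± 0.18 in beta against alpha (adjusted p = 3.58e-06) and 1.10 ± 0.19 in alpha Pdx1 DT against beta (adjusted p = 3.12e-05). Among the alpha-cell groups the Tet1 values overlapped, with -0.05 ± 0.18 in alpha Pdx1 DT against alpha (adjusted p = 0.9).

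Tet3 had 9.87 to 11.50 (median 10.84) in alpha Pdx1 DT, 9.77, 9.86, 9.01, 9.79 and 9.14 in alpha Pdx1, and 10.41, 10.11, 9.22 and 10.84 in alpha DT. It had 10.76 to 11.31 (median 11.07) in beta and 8.94 to 10.51 (median 9.78) in alpha. Beta lay wholly above alpha, and alpha Pdx1 DT wholly above alpha Pdx1, although its lowest library, alpha Pdx1 DT 5 at 9.87, was only just above 9.86. Log2 fold changes were 1.24 ± 0.24 in beta against alpha (adjusted p = 9.55e-05), 0.95 ± 0.25 in alpha Pdx1 DT against alpha (adjusted p = 0.019) and 1.27 ± 0.28 in alpha Pdx1 DT against alpha Pdx1 (adjusted p = 0.00716). The difference from alpha had an adjusted p of 0.0565, 0.0669 and 0.0618 when alpha Pdx1 DT 1, 4 or 6 was left out. With the Rn18s-rs5 covariate the difference was 0.47 (adjusted p = 0.502) from alpha and 0.23 (adjusted p = 0.997) from alpha Pdx1. Against beta, alpha Pdx1 DT had -0.29 ± 0.26 (adjusted p = 0.443). The toxin effect on Tet3 with Pdx1 exceeded that without it by 0.96 ± 0.40, which did not pass the adjustment (adjusted p = 0.468).

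The difference between Tet3 and Tet1 within a library sets these genes side by side, as a description with no test. Tet3 minus Tet1 averaged -1.09 ± 0.65 (SD, n = 6) in alpha Pdx1 DT. It averaged -2.42 ± 0.48 (SD, n = 5) in alpha Pdx1 and -1.65 ± 0.82 (SD, n = 4) in alpha DT. Its mean was 0.29 ± 0.32 (SD, n = 7) in beta and -2.09 ± 0.58 (SD, n = 8) in alpha. In alpha Pdx1 DT, 5 libraries were between -1.23 and -0.62, and alpha Pdx1 DT 5 was at -2.32, within the range of alpha (-2.57 to -0.77). In beta, 6 libraries were between 0.20 and 0.67, and beta 5 was at -0.36. The size of such a difference has no meaning in itself, since the genes are not on a common scale, and only its shift between groups is described.

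Tet2 had 11.89 to 12.68 (median 12.52) in alpha Pdx1 DT and 11.90 to 12.16 (median 12.09) in beta, ranges that overlapped through alpha Pdx1 DT 3 at 11.89. Its log2 fold change of 0.35 ± 0.13 (adjusted p = 0.0442) passed in only 3 of the 13 fits that left out 1 library, those without alpha Pdx1 DT 2, alpha Pdx1 DT 3 or beta 1. It was 0.30 (adjusted p = 0.105) without alpha Pdx1 DT 5.

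**Figure D3:**
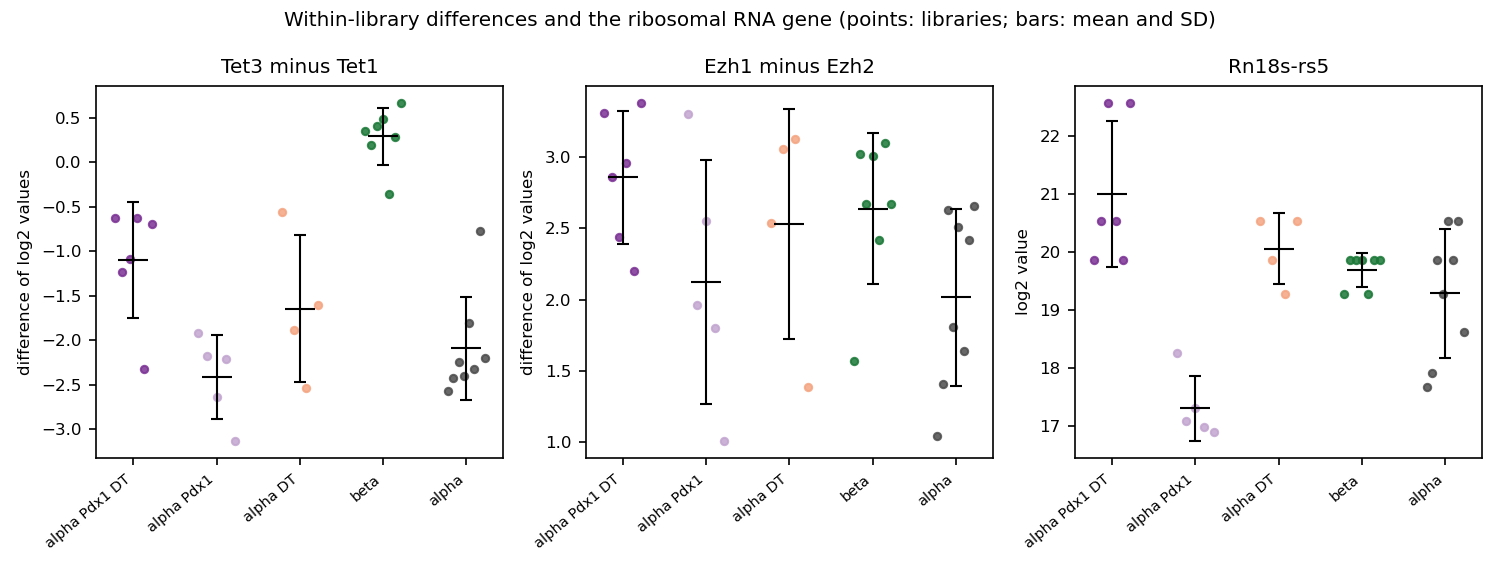
Differences of log2 values within each library for Tet3 minus Tet1 and Ezh1 minus Ezh2, and the log2 value of the ribosomal RNA gene Rn18s-rs5 (points are libraries, bars mean and SD, groups on the horizontal axis). Tet3 minus Tet1 is highest in beta (mean 0.29) and next in alpha Pdx1 DT (mean -1.09), and Rn18s-rs5 is higher in every alpha Pdx1 DT library than in every alpha Pdx1 library.

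Each DNA methyltransferase was called in a single comparison. Dnmt1 (chr9:20907206-20959888), the copying enzyme, was lower in beta than in alpha, and Dnmt3b (chr2:153649411-153687730), a de novo enzyme, was higher. Dnmt3a (chr12:3801559-3914443), the other de novo enzyme, was the single member called in alpha Pdx1 DT against alpha DT. Dnmt3a had 12.63 to 13.54 (median 13.06) in alpha Pdx1 DT against 12.56, 12.25, 11.51 and 12.48 in alpha DT, so that these groups did not overlap, with a log2 fold change of 0.85 ± 0.19 (adjusted p = 0.0154). Alpha DT 3, at 11.51, was far below the other alpha DT libraries, and without it the log2 fold change was 0.62 (adjusted p = 0.0969). Fitted by limma on those groups alone, it had an adjusted p of 0.306. Against alpha, with 12.39 to 12.97 (median 12.59), Dnmt3a had 0.42 ± 0.16 in alpha Pdx1 DT (adjusted p = 0.0892). In alpha DT it had -0.43 ± 0.18 against alpha (adjusted p = 0.173), so alpha Pdx1 DT lay above alpha and alpha DT below it by their means.

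Dnmt1 had 10.52 to 11.23 (median 10.75) in beta and 10.48 to 11.57 (median 11.45) in alpha, with a log2 fold change of -0.53 ± 0.18 (adjusted p = 0.0226), and -0.48 (adjusted p = 0.0515) without beta 7. The ranges overlapped because alpha 7 (10.48) lay below all beta libraries and beta 1 (11.23) above several alpha libraries. Dnmt3b had 7.09 to 7.74 (median 7.62) in beta and 5.80 to 7.17 (median 6.55) in alpha, with a log2 fold change of 0.99 ± 0.32 (adjusted p = 0.0171). Only alpha 2, at 7.17, reached the range of beta. Uhrf1 (chr17:56303337-56323486), which brings DNMT1 to newly copied DNA, was near the bottom of the scale in all groups. Its values were 1.43 to 4.85 (median 3.67) in alpha Pdx1 DT, 4.02, 2.93, 5.22, 5.46 and 5.18 in alpha Pdx1, and 2.0, 2.07, 2.0 and 0.99 in alpha DT. They were 1.03 to 6.20 (median 2.54) in beta and 1.40 to 4.85 (median 3.05) in alpha, and Uhrf1 was called in no comparison. It was at the lowest value of the library in 2 alpha DT and 2 beta libraries.

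Among the catalytic and core subunits of PRC2, Ezh1 was higher and Rbbp4 lower in beta than in alpha, while Ezh2, Eed and Suz12 were called in no comparison. Ezh1 (chr11:101191115-101226463), the methyltransferase that predominates in cells that do not divide, was also higher in alpha Pdx1 DT than in alpha. Ezh1 had 10.57 to 11.86 (median 11.01) in alpha Pdx1 DT, 10.95, 10.46, 10.72, 10.20 and 9.93 in alpha Pdx1, and 11.06, 10.76, 10.73 and 10.26 in alpha DT. It had 10.84 to 11.28 (median 11.02) in beta and 9.92 to 11.27 (median 10.32) in alpha. Only alpha 5, at 11.27, brought alpha into the range of beta, and the other alpha libraries were at most 10.56. The log2 fold change was 0.68 ± 0.19 in beta against alpha (adjusted p = 0.00628) and 0.74 ± 0.20 in alpha Pdx1 DT against alpha (adjusted p = 0.0252). The second had an adjusted p of 0.0644, 0.0583 and 0.097 without alpha Pdx1 DT 1, 4 or 6, and 0.0518 without alpha 6. With the Rn18s-rs5 covariate Ezh1 had 0.45 (adjusted p = 0.451) there. Against alpha Pdx1, alpha Pdx1 DT had 0.64 ± 0.23, which missed the threshold (adjusted p = 0.0676).

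Ezh2 (chr6:47530274-47595270), the methyltransferase of dividing cells, averaged 8.24 ± 0.24 (SD, n = 6) in alpha Pdx1 DT, 8.40 ± 0.48 (SD, n = 7) in beta and 8.34 ± 0.51 (SD, n = 8) in alpha. Its log2 fold changes ran from 0.06 ± 0.25 in beta against alpha to -0.17 ± 0.30 in alpha DT against alpha. Ezh1 minus Ezh2 within a library averaged 2.86 ± 0.47 in alpha Pdx1 DT, 2.64 ± 0.53 in beta and 2.02 ± 0.62 in alpha (SD). These ranges overlapped, with 2.20 to 3.38 in alpha Pdx1 DT, 1.57 to 3.10 in beta and 1.04 to 2.66 in alpha.

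Rbbp4 (chr4:129307100-129335370), a histone chaperone shared with other chromatin complexes, had 11.06 to 11.80 (median 11.23) in alpha Pdx1 DT, 11.08, 11.50, 11.43, 11.35 and 11.40 in alpha Pdx1, and 11.30, 11.61, 11.09 and 12.20 in alpha DT. It had 10.78 to 11.47 (median 10.98) in beta and 11.13 to 11.99 (median 11.61) in alpha, a log2 fold change of -0.57 ± 0.16 in beta against alpha (adjusted p = 0.00561). Beta and alpha overlapped between 11.13 and 11.47. Rbbp7 (chrX:162760372-162779090), its close relative, had 11.98 to 12.97 (median 12.71) in alpha Pdx1 DT and 12.62, 13.51, 13.27, 13.13 and 13.48 in alpha Pdx1, overlapping through alpha Pdx1 1, with a log2 fold change of -0.67 ± 0.19 (adjusted p = 0.0288). That call held in 5 of the 11 fits that left out 1 library, those without alpha Pdx1 DT 1, 2, 3 or 5 or alpha Pdx1 1, with an adjusted p up to 0.0905 (without alpha Pdx1 5). Without the doubted libraries Rbbp7 had -0.64 (adjusted p = 0.0715), and with the Rn18s-rs5 covariate 0.05 (adjusted p = 0.998). Eed (chr7:89954654-89980976) had -0.93 ± 0.35 and Suz12 (chr11:79993106-80034123) -0.43 ± 0.23 in the same comparison, with adjusted p of 0.0847 and 0.222.

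Of the accessory subunits of PRC2, Jarid2 separated beta from alpha without overlap, and Phf1 was called in alpha Pdx1 DT against both alpha and alpha Pdx1. Jarid2 (chr13:44730774-44921643), which guides PRC2 to its targets, was lower in beta than in every alpha-cell group by its mean. It had 11.21 to 11.85 (median 11.58) in alpha Pdx1 DT, 11.48, 11.74, 11.56, 11.67 and 11.53 in alpha Pdx1, and 10.86, 11.19, 11.23 and 11.64 in alpha DT. It had 10.87 to 11.16 (median 10.97) in beta and 11.41 to 11.76 (median 11.53) in alpha. Beta overlapped with alpha DT alone, since alpha DT 1, at 10.86, lay below every beta library. The log2 fold change was -0.56 ± 0.12 in beta against alpha (adjusted p = 0.000321) and 0.59 ± 0.13 in alpha Pdx1 DT against beta (adjusted p = 0.000586), and 0.03 ± 0.12 in alpha Pdx1 DT against alpha (adjusted p = 0.907).

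Phf1 (chr17:26933127-26937908), a Polycomb-like protein that reads methylated H3K36, had 8.82 to 11.02 (median 9.95) in alpha Pdx1 DT, 9.20, 8.44, 8.77, 8.39 and 7.93 in alpha Pdx1, and 9.87, 10.02, 9.02 and 10.14 in alpha DT. It had 9.42 to 10 (median 9.94) in beta and 8.54 to 10.47 (median 8.74) in alpha. In alpha, 6 libraries were at or below 8.94, and alpha 5 (10.47) and alpha 7 (9.68) stood within or above the range of beta. Log2 fold changes were 0.81 ± 0.28 in beta against alpha (adjusted p = 0.0252), 0.97 ± 0.30 in alpha Pdx1 DT against alpha (adjusted p = 0.0386) and 1.48 ± 0.33 in alpha Pdx1 DT against alpha Pdx1 (adjusted p = 0.00812). The first had 0.74 (adjusted p = 0.0518) without alpha 2. The difference between alpha Pdx1 DT and alpha was called in 3 of 14 fits that left out 1 library, those without alpha Pdx1 DT 5, alpha 5 or alpha 7, with an adjusted p up to 0.128 (without alpha Pdx1 DT 6). The difference from alpha Pdx1 was called in 11 of 11 such fits, but its sign turned with the Rn18s-rs5 covariate (-0.11, adjusted p = 0.998). With that covariate Phf1 had 0.24 (adjusted p = 0.818) against alpha.

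Of the other accessory genes, Mtf2 (chr5:108065660-108109219), a Polycomb-like protein that binds CpG-rich DNA, had -0.65 ± 0.25 in beta against alpha (adjusted p = 0.0415). It averaged 10.21 ± 0.33 (SD, n = 7) in beta and 10.86 ± 0.40 (SD, n = 8) in alpha. The call held in 5 of 15 fits that left out 1 library, those without beta 1, beta 5, alpha 1, alpha 2 or alpha 6, with an adjusted p up to 0.0929 (without beta 3). Aebp2 (chr6:140622454-140678472), a zinc finger partner of PRC2, had 0.41 ± 0.16 in alpha Pdx1 DT against beta (adjusted p = 0.0486), called in 3 of 13 such fits (without alpha Pdx1 DT 2, alpha Pdx1 DT 4 or beta 1) with an adjusted p up to 0.113 (without beta 7). Phf19 (chr2:34893752-34914353), also Polycomb-like, had low values of 0.90, 4.62, 3.09, 5.0, 2.04 and 2.35 in alpha Pdx1 DT, 2 of them at the lowest value of their library, against 4.25 to 5.66 (median 4.98) in beta. Its log2 fold change of -1.92 ± 0.63 (adjusted p = 0.0211) was -1.50 (adjusted p = 0.0786) without alpha Pdx1 DT 1 and -1.85 (adjusted p = 0.0604) without the doubted libraries, and at such values its size depends on the bottom of the scale. Phf19 also passed the filter only with the 3 beta libraries at or above 5, the group where it was high, so this call is not independent of the filter.

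**Figure D4:**
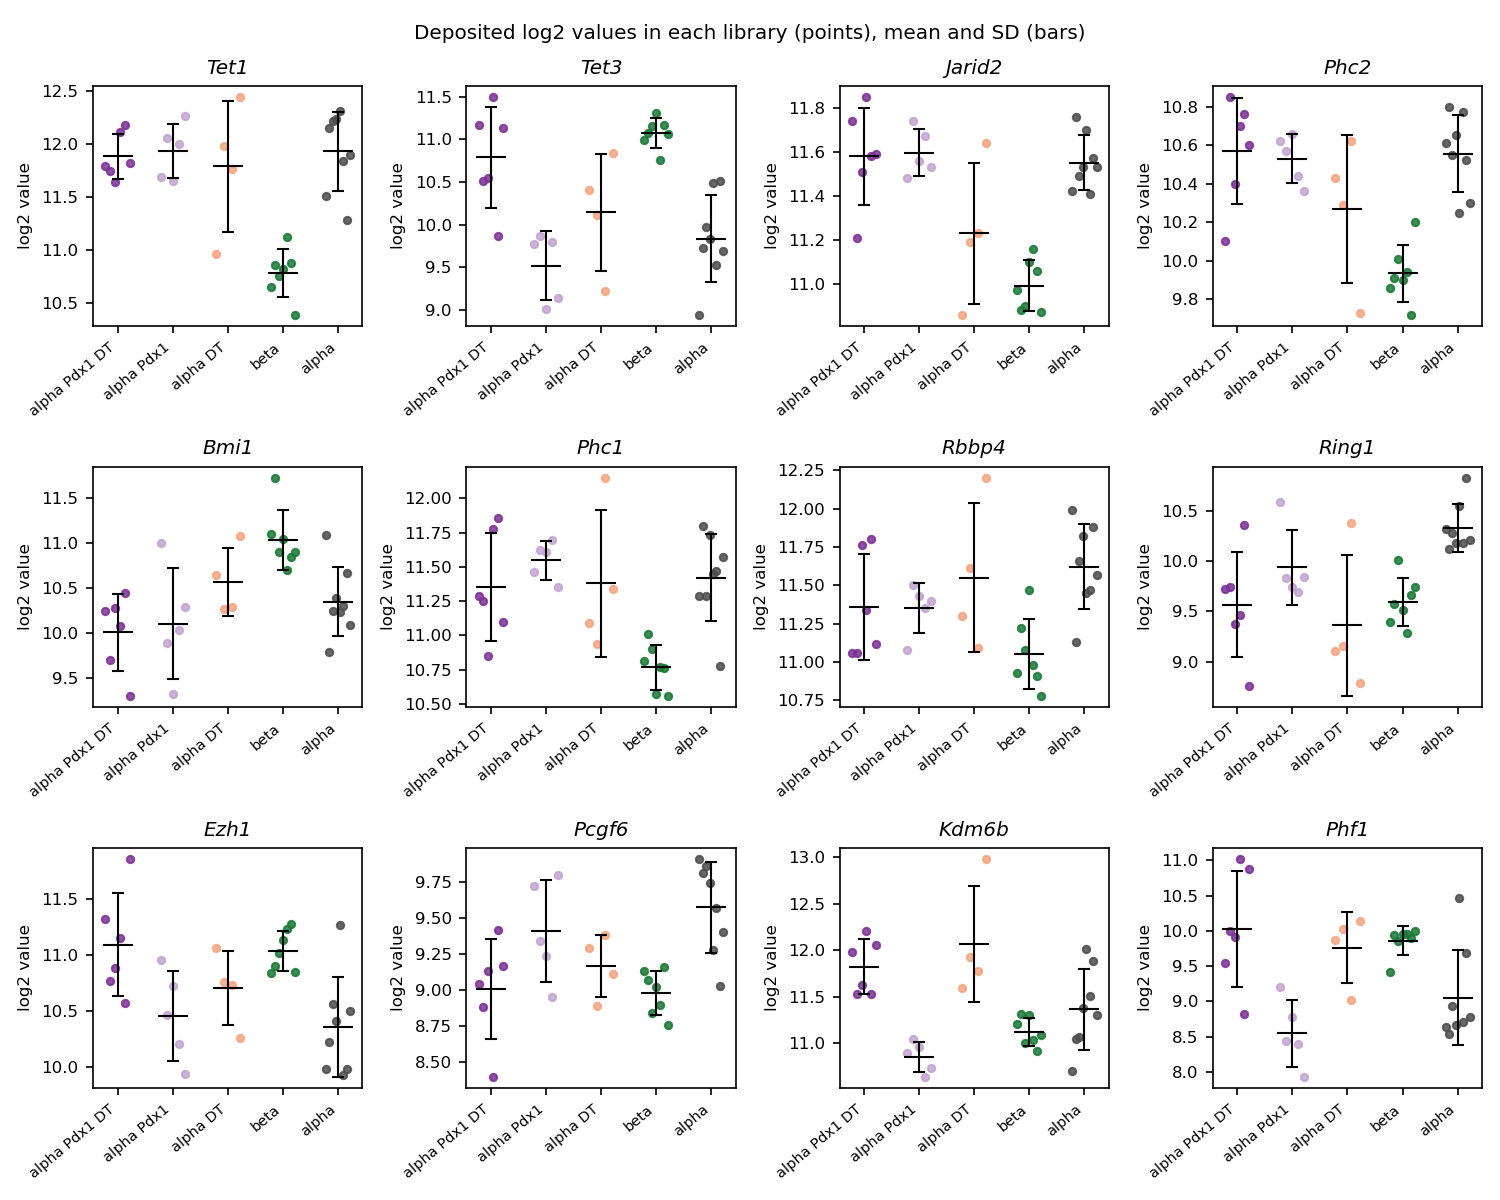
Log2 value (vertical axis) in every library (points) of the 12 members with the smallest adjusted p in any comparison of single groups, with mean and SD (bars), by group (horizontal axis). Tet1, Jarid2, Phc1 and Phc2 have their lowest group mean in beta, and Tet3 and Phf1 have higher means in alpha Pdx1 DT and beta than in alpha Pdx1.

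In PRC1, beta-cells had more Bmi1 and less Ring1, Pcgf2, Pcgf6, Phc1 and Phc2 than alpha-cells, and no CBX gene was called. Bmi1 (chr2:18677018-18686629), the PCGF subunit of canonical PRC1 known for silencing the Cdkn2a locus in beta-cells, had 9.30 to 10.44 (median 10.16) in alpha Pdx1 DT, 11, 9.88, 9.32, 10.03 and 10.28 in alpha Pdx1, and 10.64, 10.26, 10.29 and 11.07 in alpha DT. It had 10.70 to 11.72 (median 10.90) in beta and 9.79 to 11.08 (median 10.27) in alpha. All alpha Pdx1 DT libraries were below all beta libraries, and of alpha only alpha 1, at 11.08, reached the range of beta. The log2 fold change was 0.68 ± 0.21 in beta against alpha (adjusted p = 0.0124) and -1.02 ± 0.23 in alpha Pdx1 DT against beta (adjusted p = 0.000946).

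Ring1 (chr17:34020792-34024680), a ubiquitin ligase of PRC1, had 8.76 to 10.36 (median 9.59) in alpha Pdx1 DT, 10.59, 9.83, 9.74, 9.69 and 9.84 in alpha Pdx1, and 9.11, 9.16, 10.38 and 8.79 in alpha DT. It had 9.29 to 10.01 (median 9.57) in beta and 10.12 to 10.83 (median 10.24) in alpha. Beta lay wholly below alpha, as did all libraries of alpha Pdx1 DT but alpha Pdx1 DT 5 (10.36) and all of alpha DT but alpha DT 3 (10.38). All of alpha Pdx1 but alpha Pdx1 1 (10.59) lay below alpha as well, with a log2 fold change of -0.39 ± 0.23 that was not called (adjusted p = 0.397). Ring1 was called against alpha in beta, alpha DT and alpha Pdx1 DT, comparisons that share the same alpha libraries. Its log2 fold changes were -0.74 ± 0.21 in beta (adjusted p = 0.00625), -0.98 ± 0.25 in alpha DT (adjusted p = 0.0273) and -0.76 ± 0.22 in alpha Pdx1 DT (adjusted p = 0.0308). The alpha DT call had an adjusted p of 0.0647, 0.0762 and 0.067 without alpha DT 1, 2 or 4. The alpha Pdx1 DT call had 0.0539, 0.0631, 0.0679 and 0.112 without alpha Pdx1 DT 1, 3, 4 or 6, and 0.0501 without alpha 7. With the Rn18s-rs5 covariate Ring1 had -0.91 (adjusted p = 0.0555) in alpha DT and -0.62 (adjusted p = 0.341) in alpha Pdx1 DT. Rnf2 (chr1:151469398-151500991), its partner ligase, had -0.22 ± 0.20 in beta against alpha and was called in no comparison.

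Pcgf6 (chr19:47033617-47050939), the PCGF subunit of a variant PRC1 that binds with MGA and MAX, had 8.40 to 9.42 (median 9.09) in alpha Pdx1 DT, 9.72, 9.34, 9.24, 8.95 and 9.80 in alpha Pdx1, and 9.29, 8.89, 9.38 and 9.11 in alpha DT. It had 8.76 to 9.16 (median 9.02) in beta and 9.03 to 9.91 (median 9.66) in alpha. Alpha overlapped with beta through alpha 7 alone, at 9.03. The log2 fold change was -0.59 ± 0.17 in beta against alpha (adjusted p = 0.00734) and -0.57 ± 0.18 in alpha Pdx1 DT against alpha (adjusted p = 0.0465), the second called in 4 of 14 fits that left out 1 library. Those were the fits without alpha Pdx1 DT 5, alpha 5, alpha 7 or alpha 8, and the adjusted p reached 0.14 without alpha Pdx1 DT 4 and 0.391 with the Rn18s-rs5 covariate. Pcgf2 (chr11:97688821-97702434), the relative of Bmi1, had -0.47 ± 0.19 in beta against alpha (adjusted p = 0.048), called in 3 of 15 such fits (without beta 2, alpha 1 or alpha 7) with an adjusted p up to 0.0972 (without alpha 3). It averaged 10.26 ± 0.16 (SD, n = 7) in beta and 10.73 ± 0.38 (SD, n = 8) in alpha. Pcgf1, Pcgf3 and Pcgf5, which define further variants of PRC1, were called in no comparison, with log2 fold changes of -0.06 ± 0.31, -0.36 ± 0.17 and 0.46 ± 0.22 in beta against alpha.

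Both called PHC genes, whose products link PRC1 complexes into larger assemblies, were lower in beta than in alpha and alpha Pdx1 DT. Phc1 (chr6:122317731-122340227) had 10.85 to 11.86 (median 11.27) in alpha Pdx1 DT, 11.46, 11.62, 11.61, 11.70 and 11.35 in alpha Pdx1, and 11.09, 10.94, 12.15 and 11.34 in alpha DT. It had 10.56 to 11.01 (median 10.77) in beta and 10.78 to 11.80 (median 11.46) in alpha, where alpha 7 alone, at 10.78, was in the range of beta. Phc1 had -0.65 ± 0.17 in beta against alpha (adjusted p = 0.00265) and 0.59 ± 0.18 in alpha Pdx1 DT against beta (adjusted p = 0.0148), which was 0.49 (adjusted p = 0.0862) without the doubted libraries. Phc2 (chr4:128654655-128752881) had 10.10 to 10.85 (median 10.65) in alpha Pdx1 DT, 10.62, 10.57, 10.66, 10.44 and 10.36 in alpha Pdx1, and 10.43, 10.29, 10.62 and 9.73 in alpha DT. It had 9.72 to 10.20 (median 9.91) in beta and 10.25 to 10.80 (median 10.58) in alpha, so that beta lay wholly below alpha. Its log2 fold changes were -0.62 ± 0.14 in beta against alpha (adjusted p = 0.000713) and 0.63 ± 0.15 in alpha Pdx1 DT against beta (adjusted p = 0.00181), where alpha Pdx1 DT 1, at 10.10, was in the range of beta. Phc3 (chr3:30899295-30969479) was called in no comparison.

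Of the 4 CBX genes, which read methylated H3K27, Cbx6 (chr15:79823898-79834333) alone was called, and in alpha Pdx1 DT against alpha Pdx1 alone. It had 10.11 to 11.57 (median 11.28) in alpha Pdx1 DT and 11.06, 9.88, 10.02, 10.11 and 9.52 in alpha Pdx1, with a log2 fold change of 1.01 ± 0.29 (adjusted p = 0.0267). The groups overlapped through alpha Pdx1 DT 5 (10.11) and alpha Pdx1 1 (11.06), and the call held in 4 of 11 fits that left out 1 library, those without alpha Pdx1 DT 2, 3 or 5 or alpha Pdx1 1. The adjusted p reached 0.095 without alpha Pdx1 5, and with the Rn18s-rs5 covariate the sign turned (-0.26, adjusted p = 0.995). Cbx2, Cbx7 and Cbx8 had 0.42 ± 0.40, 0.29 ± 0.21 and 0.78 ± 0.65 in that comparison.

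Of the demethylases of H3K27, Kdm6b was called in a pair of comparisons and Kdm6a in none. Kdm6b (chr11:69398508-69420367), an inducible enzyme, had 11.53 to 12.20 (median 11.80) in alpha Pdx1 DT, 10.89, 11.04, 10.96, 10.64 and 10.73 in alpha Pdx1, and 11.59, 11.93, 11.78 and 12.98 in alpha DT. It had 10.92 to 11.31 (median 11.09) in beta and 10.70 to 12.01 (median 11.34) in alpha. The libraries of both toxin groups lay wholly above those of alpha Pdx1 and beta, and alpha spanned the gap. Log2 fold changes were 0.97 ± 0.21 in alpha Pdx1 DT against alpha Pdx1 (adjusted p = 0.00743) and 0.70 ± 0.20 in alpha Pdx1 DT against beta (adjusted p = 0.00752), and each was called in every fit that left out 1 library. With the Rn18s-rs5 covariate they were 0.28 (adjusted p = 0.995) and 0.45 (adjusted p = 0.104). Against alpha the differences missed the threshold, with 0.71 ± 0.22 in alpha DT (adjusted p = 0.0585), 0.46 ± 0.19 in alpha Pdx1 DT (adjusted p = 0.117) and -0.51 ± 0.20 in alpha Pdx1 (adjusted p = 0.153). Kdm6a (chrX:18160862-18279936), its X-linked relative, had group means between 12.16 in beta and 12.32 in alpha Pdx1 DT.

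The H3K4 methyltransferases of the list appeared only under older names. The row Mll1, a RefSeq synonym of Kmt2a alone, had 14.19 to 15.09 (median 14.53) in alpha Pdx1 DT, 13.79 to 14.28 (median 14.11) in beta and 13.99 to 15.09 (median 14.79) in alpha. It was lower in beta than in alpha by a log2 fold change of -0.59 ± 0.15 (adjusted p = 0.00194), and higher in alpha Pdx1 DT than in beta by 0.52 ± 0.16 (adjusted p = 0.0143). The row Mll2 is a synonym of both Kmt2b and Kmt2d, so its gene is uncertain, although another row, Wbp7, is a synonym of Kmt2b alone. Mll2 had 13.63 to 14.85 (median 14.08) in alpha Pdx1 DT against 13.57, 13.20, 13.26, 13.31 and 13.11 in alpha Pdx1, which did not overlap, with a log2 fold change of 0.86 ± 0.20 (adjusted p = 0.00833). It had 0.58 ± 0.18 in alpha Pdx1 DT against alpha (adjusted p = 0.0381). With the Rn18s-rs5 covariate limma called 0 genes in either comparison, so both Mll2 calls were lost. The call against alpha was also lost when only those groups were fitted (0 genes called).

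In alpha Pdx1 against alpha, which called no member, the median log2 fold change was 0.01 over members and 0.03 over all genes, and the members with an unadjusted p under 0.05 were Kdm6b and Pcgf2 (-0.49 ± 0.20, adjusted p = 0.19). Over all genes, 721 were called there. Ablation without Pdx1 gave a median of -0.07 over members and -0.06 over all genes, with Ring1 called.

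The ribosomal RNA gene Rn18s-rs5 moved with the groups. Its log2 value averaged 20.99 ± 1.26 (SD, n = 6) in alpha Pdx1 DT. It averaged 17.31 ± 0.56 (SD, n = 5) in alpha Pdx1 and 20.06 ± 0.61 (SD, n = 4) in alpha DT. Its mean was 19.70 ± 0.29 (SD, n = 7) in beta and 19.29 ± 1.12 (SD, n = 8) in alpha. Every alpha Pdx1 DT library (at least 19.87) was above every alpha Pdx1 library (16.90 to 18.27). Within alpha it was highest in alpha 5 and alpha 7 (20.54 each), the libraries with the 2 highest values of Tet3, Phf1, Cbx6 and Kdm6b in that group. These genes are examples, and members were not counted in this way. Alpha 7 was the lowest of the group for Dnmt1 (10.48) and Cbx7 (9.51), and alpha 5 for Rnf2 (9.35). With Rn18s-rs5 as a covariate, in beta against alpha, Tet1 had -1.12 and Tet3 1.13, and all called members but Mtf2 and Pcgf2 were still called. Since Rn18s-rs5 does not overlap between alpha Pdx1 DT and alpha Pdx1, it and the toxin cannot be told apart in that comparison. Its values are rank positions near the top of the scale, where Gcg, Ins2 and Ttr take the same steps, such as 20.54 and 19.87. In alpha Pdx1 DT 3 and 6 it held the top value, 22.57, where Gcg had 20.54 and 19.27. The value thus also depends on the ranks of those genes and is no direct measure of ribosomal RNA.

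Markers of other cell types differed between the groups as well. The summed log2 level of 5 delta-cell and PP-cell markers had a median of 14.2 in beta and 17.9 in alpha. Its median was 20.23 in alpha Pdx1 DT, 20.79 in alpha Pdx1 and 19.5 in alpha DT. Of these 5 markers, 3 were lower in beta than in alpha, and 3 were higher in alpha Pdx1 DT than in beta. Against alpha, limma called 0 of them in alpha DT, alpha Pdx1 or alpha Pdx1 DT (2, 1 and 1 at an unadjusted p under 0.05). By group means Pyy was the largest part in both Pdx1 groups, with 20.9 in alpha Pdx1, 19.84 in alpha Pdx1 DT and 17.66 in alpha. Sst and Hhex had lower means in alpha Pdx1 (13.63 and 4.34) than in alpha (14.3 and 5.62), and higher ones in alpha DT and alpha Pdx1 DT. For leukocyte markers the summed level, on the log2 scale over 9 genes, ran from 8.35 to 15.78 in alpha Pdx1 DT, 7.96 to 9.79 in alpha Pdx1, 12.24 to 16.07 in alpha DT, 9.82 to 15.35 in beta and 8.22 to 11.35 in alpha. Of the 9 markers, 6 were higher in alpha DT than in alpha, 3 in alpha Pdx1 DT than in alpha Pdx1, and 1 in alpha Pdx1 DT than in alpha. In beta, 2 of the 9 were higher than in alpha, Fcer1g by 2.87 and Timd4 by 2.8. None of the 9 was at the lowest value of a library. The summed level of 9 acinar-cell markers ran from 9.75 to 18.42 (median 14.45) in alpha Pdx1 DT, 7.37 to 14.98 (median 8.40) in alpha Pdx1, 12.23 to 18.19 (median 17.19) in alpha DT, 10.32 to 18.44 (median 14.65) in beta and 10.36 to 17.16 (median 14.03) in alpha. Limma called 0 of these 9 in any comparison, with 2 at an unadjusted p under 0.05 in alpha Pdx1 DT against alpha Pdx1 and 1 in alpha Pdx1 against alpha. The summed level of 4 mesenchymal markers did not overlap between beta (6.42 to 8.88) and alpha (9.69 to 11.98), and 3 of the 4 were lower in beta. That sum also lay higher in alpha Pdx1 DT (10.65 to 12.22) than in beta. By group means Col1a2 was its largest part in the alpha-cell groups, with 10.15 in alpha, 10.93 in alpha Pdx1 DT and 5.92 in beta. Col1a1 was low, with 5.23 in alpha and 3.91 in beta, so the sum describes mainly a single gene. The part of these markers in the members' results was not tested. The summed level of 17 proliferation genes overlapped between all groups, from 11.39 to 12.24 in alpha Pdx1 DT, 11.46 to 13.41 in beta and 11.90 to 12.37 in alpha.

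Other genes of these pathways were read from lists drawn up by function. In beta against alpha, 9 of 24 other Polycomb genes were called, 3 higher and 6 lower, where 34.5% of all genes were called. Kdm2b, the CpG-binding subunit of a variant PRC1, was higher by 1.45 ± 0.26 (adjusted p = 3.29e-05) and Sfmbt1 by 0.95. Asxl3 (-2.29), Sfmbt2 (-2.11) and Asxl1 (-1.15), of which the ASXL proteins act with the H2A deubiquitinase BAP1, were lower. Of 22 other DNA methylation genes, 3 were higher, among them the isocitrate dehydrogenases Idh1 (1.22) and Idh2 (0.69), whose product is a cosubstrate of TET enzymes. Another 5 were lower, among them Gadd45b (-1.83) and Gadd45a (-1.44), which are linked to DNA demethylation and to stress. Of 19 genes of the H3K4 methyltransferase complexes and KDM5 demethylases, Paxip1 (1.08) and Rbbp5 (0.56) were higher and the row of Kmt2e (-0.45) and Kdm5b (-0.38) were lower. Of 8 known Polycomb targets tested, of 26 listed, Lhx1 (2.64) and Cdkn2b (0.99) were higher, and 3 were lower, among them Gata6 (-2.09) and Cdkn1c (-1.38). The median log2 fold change was 0.02 over the Polycomb list, -0.08 over the DNA methylation list, 0.02 over the H3K4 list and -0.12 over the targets, against 0 over all genes.

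In alpha Pdx1 DT against alpha, 4 of the 24 Polycomb genes were higher, where 4.06% of all genes were, led by Bcorl1, a corepressor of a variant PRC1 (0.85 ± 0.22, adjusted p = 0.0204) and Sfmbt1 (0.83 ± 0.21, adjusted p = 0.0178), and Yaf2, a PRC1 subunit that binds RING proteins, was lower (-0.65 ± 0.20, adjusted p = 0.0423). Gadd45a was lower (-1.19 ± 0.36, adjusted p = 0.0398), and limma called 0 genes in the remaining lists of H3K4 methylation, Polycomb targets and proliferation, with 2 of each list at an unadjusted p under 0.05 (the row Mll2, called above, is outside these lists). Against alpha Pdx1, in alpha Pdx1 DT libraries Setd1a, an H3K4 methyltransferase (0.88 ± 0.20, adjusted p = 0.00885), and Fbrs (0.74 ± 0.19, adjusted p = 0.0141) were higher and Yaf2 lower (-0.70 ± 0.23, adjusted p = 0.0463). In alpha DT against alpha, Max, a partner of PCGF6 in its complex (1.00 ± 0.24, adjusted p = 0.0196), and Ahcy, which clears the by-product of methyl transfer (0.95 ± 0.26, adjusted p = 0.0378) were higher. In alpha Pdx1 against alpha, limma called 0 genes of these 5 lists, with 5 Polycomb, 5 DNA methylation, 1 H3K4, 1 target and 1 proliferation gene at an unadjusted p under 0.05.

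In alpha Pdx1 DT against beta, 4 of the 24 Polycomb genes were higher and 1 was lower, where 26.3% of all genes were called. Kdm2b was the lower gene (-1.90 ± 0.28, adjusted p = 2.17e-06), and Asxl3 (1.47 ± 0.46, adjusted p = 0.017) and Asxl1 (0.95 ± 0.18, adjusted p = 0.000132) were among the higher. The Polycomb targets Cdkn1c (2.30 ± 0.34, adjusted p = 2.93e-06) and Gata6 (1.73 ± 0.23, adjusted p = 3.25e-07) were higher, and Lhx1 (-2.25 ± 0.38, adjusted p = 2.67e-05) and Cdkn2b (-0.97 ± 0.33, adjusted p = 0.0264) were lower. Of the 22 DNA methylation genes, Gadd45b was higher (2.11 ± 0.41, adjusted p = 0.00019). Idh2 (-0.66 ± 0.20, adjusted p = 0.0145) and Mbd2 (-0.64 ± 0.19, adjusted p = 0.0111) were lower. Of the 19 H3K4 genes, Men1, the menin subunit of H3K4 methyltransferase complexes, was lower (-1.11 ± 0.32, adjusted p = 0.0103), as was Paxip1 (-0.82 ± 0.15, adjusted p = 5.8e-05). Setd1a was higher (0.49 ± 0.19, adjusted p = 0.049).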

How the data were processed

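The deposited table holds 30 bulk RNA-seq libraries in 5 groups and 17775 genes. Per the submitters' processing notes, reads were aligned with GSNAP to GRCm38. The counting rule, strand setting and annotation are not given in the sources used here. Its values are log2 expression after the authors' quantile normalization across libraries. For a technical check of units, 28 deposited columns with purely numeric names were entered as a score, and they hold the same log2 values. Read totals are unknown, so no counting interval is given.

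Genes reaching 5 in 4 or more libraries (16633) were fitted with limma 3.58.1 in R 4.3.3, with 1 mean per group and robust, trended empirical Bayes variances. Two-sided p-values were corrected with the Benjamini-Hochberg method over all genes tested in each of 8 contrasts, with a threshold of 0.05. The model was tested on simulated data. Alternatives changed the filter, the scale (an offset of 32 on linear values), the variance model, the libraries fitted, the centring and a Rn18s-rs5 covariate, and left out libraries.

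The members and lists were chosen with earlier results of these data known. Values in every library were given for the 12 called members with the smallest adjusted p, and for others where a result turned on them. Up to 2 genes in each direction were named per pathway list and contrast, and Asxl1 was added after its value was seen. Promoter windows and positions came from RefSeq (GRCm38.p6), and the 4 windows were chosen after the results were seen. Python 3.11.15, numpy 2.4.6, pandas 2.3.3 and matplotlib 3.10.9 made tables and figures.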

Additional observations from a re-analysis of the deposited data

Results flagged for a closer look

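In 14 of 175 combinations of member and group, 1 library stood apart from the rest of its group (the gap to the nearest library, over the range of the group, was above Dixon's critical value). Chance flags about 1 in 20 groups.

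The library alpha Pdx1 1 stood apart for 3 genes, with Dnmt3a at 13.24, Ring1 at 10.59 and Rnf2 at 9.65. Alpha Pdx1 DT 6, the library with the fewest distinct low values, had Mtf2 at 8.93 and Pcgf2 at 9.78, both the lowest of the group. Alpha Pdx1 DT 5, whose Pdx1 value went against its label, had Cbx6 at 10.11, where the other 5 were at or above 11.07. In alpha DT, Uhrf1 was 0.99 in alpha DT 4, the lowest value of that library. It was also at the lowest value of its library in alpha DT 3 (2.0), so this gap rests on the bottom of the scale.

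In beta, beta 1 had low values of Phf1 (9.42) and Cbx8 (4.31), and beta 2 a high value of Bmi1 (11.72). Among the alpha libraries, alpha 7 was low for Dnmt1 (10.48) and Cbx7 (9.51), alpha 5 was low for Rnf2 (9.35) and alpha 1 was high for Pcgf5 (9.87). The causes were not tested.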

How the results depend on the processing

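Counts of members called kept within 1.5 times of the reported ones under 8 other settings, with these exceptions. Fitted on the groups of the contrast alone, alpha DT against alpha called 0 members (66 genes). Alpha Pdx1 DT then called 0 members against alpha and 0 against alpha DT (0 genes each). In that setting beta against alpha called 20 members (7314 genes). Alpha Pdx1 DT called 10 against beta (4970 genes) and 4 against alpha Pdx1 (904 genes), and the cause of the lost calls was not tested. With Rn18s-rs5 as a covariate, 0 members were called in alpha DT against alpha (295 genes), in alpha Pdx1 DT against alpha and in alpha Pdx1 DT against alpha Pdx1 (0 genes each). In the last, Phf1 reversed to -0.11, Cbx6 to -0.26 and Rbbp7 to 0.05, and the cause was not tested. Without the 5 doubted libraries, 5 members were called in alpha Pdx1 DT against beta. Leaving out 1 library gave 12 to 16 members in beta against alpha, 0 to 2 in alpha DT against alpha, 0 to 0 in alpha Pdx1 against alpha, and 0 to 7, 3 to 7, 0 to 1 and 6 to 11 in alpha Pdx1 DT against alpha, alpha Pdx1, alpha DT and beta. The interaction gave 0 to 0. The 0 in alpha DT against alpha came without alpha DT 2, and 2 came without alpha DT 3, alpha 5 or alpha 7. The 0 in alpha Pdx1 DT against alpha came without alpha Pdx1 DT 1, 4 or 6, and leaving out alpha Pdx1 DT 2 or 3, or alpha 1, 2, 3, 4 or 6, gave 2 or 3. The 3 in alpha Pdx1 DT against alpha Pdx1 came without alpha Pdx1 DT 4 or alpha Pdx1 2, 3, 4 or 5, and the 0 against alpha DT without alpha DT 3. Values of single members were compared where the member was called in the reported fit or in the other setting. Of these, 646 were called in both with the same direction, 127 lost the threshold, 46 gained it and 3 reversed. Members called in neither fit were not counted. No paired analysis was possible because the labels give no replicate numbers. Quantile normalization hides changes of total RNA, and low values (Uhrf1, Phf19, Cbx8) rest on few reads of unknown number.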
